A study of Mus musculus with 4 samples.

Results

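Atf4, Ddit3 (Chop) and 8 transcription factors and early targets that work with them in the integrated stress response were taken by symbol from a table of 15429 genes. The 10 genes are Atf4, Atf3, Atf5, Ddit3, Trib3, Chac1, Cebpb, Cebpg, Ppp1r15a and Vldlr, and each symbol stood for 1 identifier. They were measured by sequencing of polyadenylated RNA from OE7, a line of mouse epiblast stem cells that resemble the post-implantation embryo and carry an Oct4 reporter transgene (Oct4-Gip). The Tox4 esiRNA group (n = 2) received an enzymatically prepared pool of short interfering RNAs against Tox4, which encodes a chromatin-associated HMG-box protein. The Luc esiRNA group (n = 2) received a pool against luciferase. Both groups carried the transgene, were at passages 21 to 25, grew in N2B27 medium with Fgf2 (12 ng/ml) and Activin A (20 ng/ml), and were transfected with 1000 ng of esiRNA in 2 µl of lipofectamine. No untransfected cells were analysed here, so that levels are those of transfected cells in both groups. All libraries came from 1 line, and whether they were separate cultures is not labelled; the p-values therefore cover the spread of these libraries, which may be technical.

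In the integrated stress response, kinases that sense amino acid shortage, misfolded protein, haem shortage or double-stranded RNA phosphorylate the initiation factor eIF2, which slows translation in general while allowing translation of a few messages such as that of Atf4. Atf4 then dimerises with C/EBP proteins and activates genes of amino acid supply and redox balance, and among these genes are further regulators, including Atf3, Atf5 and Ddit3. Ppp1r15a and Trib3 act as brakes on the response, the first by bringing phosphatase to eIF2 and the second by restraining Atf4 and Chop. Because much of this control is translational, RNA levels show only part of it, and protein and eIF2 phosphorylation were not measured here.

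The C/EBP-ATF response element, the DNA site bound by dimers of Atf4 and C/EBP proteins, was searched in the RefSeq promoter windows of the members, which reach from 250 bases before to 50 bases after a start. All 10 members had a window, and 12 starts were covered. The core letters TGATGNAA were sought on both strands, and they were found at 1 start each of Trib3, Chac1, Atf3 and Vldlr, which is 4 of 10 members, against 3.97% of all 32851 windows and 2.49% of the 8882 symbols that were both tested and matched. The windows of Atf4, Atf5, Ddit3, Cebpb, Cebpg and Ppp1r15a did not hold these letters, which says nothing of sites elsewhere. The 8 letters of the cAMP response element, TGACGTCA, which do not overlap any of these matches, were found in 1 member, Ppp1r15a, 12 to 5 bases before its start, in 1.79% of all windows and for 3.77% of the tested and matched symbols. These matches are letters in a window, and binding was not measured. Parts of the windows are shown to let the 4 matches be read. Part of the Atf4 window is shown too, as that of the regulator, and its whole window held no match. Capitals mark the match, read on the gene's own strand (build GRCm38.p6, RefSeq). Trib3 is minus strand chr2:152344036-152344180, Chac1 plus strand chr2:119350992-119351141, Atf3 minus strand chr1:191183334-191183483, Vldlr plus strand chr19:27216809-27216838 at its second start, and Atf4 plus strand chr15:80255034-80255183.
Trib3: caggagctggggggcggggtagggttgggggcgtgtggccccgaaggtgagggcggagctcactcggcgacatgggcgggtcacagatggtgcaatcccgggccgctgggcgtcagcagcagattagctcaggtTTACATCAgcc
Chac1: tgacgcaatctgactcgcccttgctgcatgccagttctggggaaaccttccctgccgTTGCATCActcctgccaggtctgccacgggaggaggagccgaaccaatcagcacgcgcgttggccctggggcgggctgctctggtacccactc
Atf3: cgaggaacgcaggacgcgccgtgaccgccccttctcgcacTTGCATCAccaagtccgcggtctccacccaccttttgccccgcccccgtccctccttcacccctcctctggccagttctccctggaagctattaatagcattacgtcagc
Vldlr: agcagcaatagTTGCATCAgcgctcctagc
Atf4: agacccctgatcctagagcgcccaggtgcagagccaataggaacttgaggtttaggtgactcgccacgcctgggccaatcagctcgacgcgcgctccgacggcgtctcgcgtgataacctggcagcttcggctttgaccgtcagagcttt

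The match lies 110 to 103 bases before the start in Atf3, 193 to 186 bases before it in Chac1 and 200 to 193 bases before the second of 2 starts in Vldlr, where the printed 30 bases fall in an annotated exon of a longer Vldlr transcript. In Trib3 it lies 15 to 22 bases after the RefSeq start, a position upstream of the GENCODE start of the gene. Chac1, Atf3 and Vldlr share the same 8 letters, TTGCATCA, and Trib3 has TTACATCA; both are the core read from the other strand.

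**Figure D1:**
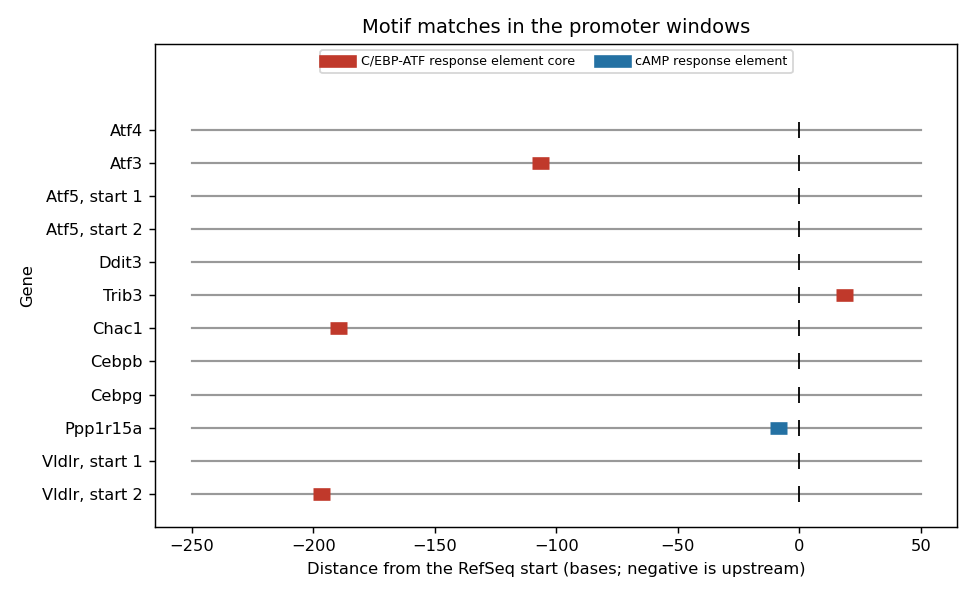
Positions of motif matches in the 12 promoter windows of the 10 genes; the x axis gives the distance in bases from the RefSeq start, the black ticks mark the start, and red and blue blocks mark the C/EBP-ATF response element core and the cAMP response element. Red blocks appear in Atf3, Trib3, Chac1 and the second start of Vldlr, and the blue block in Ppp1r15a.

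Trib3 and Chac1 fell with Tox4 esiRNA, and the transcription factors of the group showed smaller differences or wider errors. Of the 10 members, all of which averaged 1 FPKM or more over the 4 libraries and entered the test, 2 were lower, none was higher and 8 did not pass (limma on log2(FPKM + 1), Benjamini-Hochberg adjusted p under 0.05 over 12403 genes). Over all genes tested, 325 (2.62%) were lower and 234 (1.89%) were higher, 4.51% in either direction. By limma-voom on reads worked back from the FPKM values, 5 members were lower (Trib3, Chac1, Vldlr, Atf3 and Atf4) and none was higher, against 5.84% lower and 6.30% higher among all genes. At an unadjusted p under 0.05 in limma, 6 members were lower and 1, Atf5, was higher. The share of all genes at that unadjusted p was not counted. Both Tox4 libraries lay below both Luc libraries for 6 members (Atf4, Atf3, Ddit3, Trib3, Chac1 and Vldlr) and above them for 1 (Atf5), while 3 overlapped. Among all genes tested, 26.7% lay wholly below and 25.3% wholly above. The median log2 fold change of the 10 members was -0.17, beside -0.0034 for all genes tested. Of the 10 values 9 were negative, as were 6346 of the 12403 over all genes tested. The members were chosen with results of these data known, so these counts are a description.

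**Figure D2:**
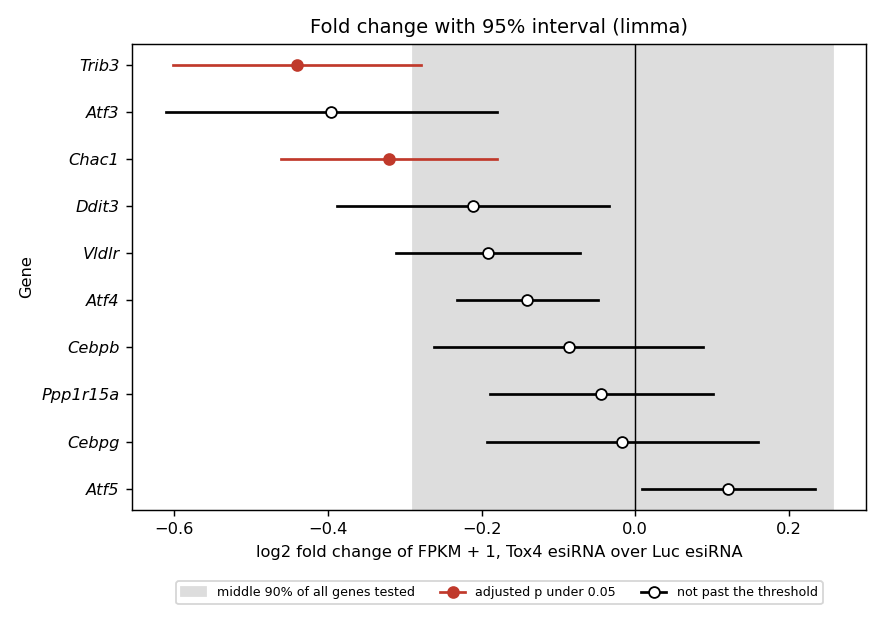
Log2 fold change of FPKM + 1 (Tox4 esiRNA over Luc esiRNA, x axis) for each of the 10 genes, with limma 95% intervals; filled red points passed the adjusted threshold, open points did not, and the grey band holds the middle 90% of all genes tested (-0.29 to 0.26). Trib3, Atf3 and Chac1 lie below the band and only Trib3 and Chac1 are filled.

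Trib3 (ENSMUSG00000032715, chromosome 2, 152337422 to 152344032, minus strand, GRCm38) encodes a pseudokinase that is induced by Atf4 and Chop and restrains them. It was at 14.2 and 16.2 FPKM in Tox4 replicates 1 and 2, against 21.2 and 20.8 FPKM in Luc replicates 1 and 2, on 450, 444, 863 and 668 reads. The groups did not overlap, and the Tox4 libraries differed from each other more than the Luc libraries did. The mean was 15.2 ± 1.39 FPKM with Tox4 esiRNA and 21.0 ± 0.286 FPKM with Luc esiRNA (SD, n = 2 each), a ratio of 0.726. This gave a limma log2 fold change of -0.44 with an SE of 0.066 and a 95% interval from -0.60 to -0.28 (adjusted p = 0.0270), and 1.92% of the genes tested had a lower one. Exact Poisson intervals, which cover counting error only, ran from 13.0 to 15.6 and from 14.7 to 17.8 FPKM in the Tox4 libraries and from 19.8 to 22.6 and from 19.2 to 22.4 FPKM in the Luc libraries. The call was lost without Luc replicate 1 (log2 fold change -0.43, adjusted p = 0.140) and without Luc replicate 2 (-0.45, adjusted p = 0.131), fits whose residual spread comes from the Tox4 libraries alone.

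Chac1 (ENSMUSG00000027313, chromosome 2, 119351229 to 119354381, plus strand) encodes a gamma-glutamylcyclotransferase that breaks down glutathione and is an early target of Atf4. It was at 20.9 and 23.2 FPKM in the Tox4 libraries, against 27.8 and 27.6 FPKM in the Luc libraries, on 486, 469, 837 and 655 reads. Both Tox4 libraries were lower, by more than the Tox4 libraries differed from each other. The mean was 22.03 ± 1.67 FPKM with Tox4 esiRNA and 27.7 ± 0.164 FPKM with Luc esiRNA (SD, n = 2 each), with a limma log2 fold change of -0.32, an SE of 0.058 and a 95% interval from -0.46 to -0.18 (adjusted p = 0.0413). The call did not hold without Luc replicate 1 (-0.32, adjusted p = 0.185), without Luc replicate 2 (-0.33, adjusted p = 0.181) or without Tox4 replicate 1 (-0.25, adjusted p = 0.0672).

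Vldlr (ENSMUSG00000024924, chromosome 19, 27216484 to 27254231, plus strand) encodes a lipoprotein and reelin receptor that Atf4 is known to induce in mouse cells. It was at 12.9 and 12.7 FPKM with Tox4 esiRNA, against 15.1 and 14.4 FPKM with Luc esiRNA. The groups did not overlap, and the log2 fold change of -0.19 (SE 0.049, 95% interval -0.31 to -0.07) did not pass in limma (adjusted p = 0.0889). It rested on 1817, 1555, 2746 and 2073 reads, more than any other member except Atf4, and it passed in limma-voom on those reads (-0.20, adjusted p = 0.00484). Ppp1r15a (ENSMUSG00000040435, chromosome 7, 45522916 to 45526268, minus strand), the stress-induced eIF2 phosphatase subunit also known as Gadd34, was at 15.5 and 14.1 FPKM with Tox4 esiRNA, against 14.96 and 15.7 FPKM with Luc esiRNA. The groups overlapped, and the log2 fold change was -0.04 (95% interval -0.19 to 0.10, limma adjusted p = 0.728). Ppp1r15a exons share 12 bases with Tulp2 on the opposite strand.

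Atf4 (ENSMUSG00000042406, chromosome 15, 80255184 to 80257541, plus strand), the central regulator, was at 232 and 242 FPKM in the Tox4 libraries, against 265 and 258 FPKM in the Luc libraries. Both Tox4 libraries were lower, and the mean was 237 ± 7.31 FPKM with Tox4 esiRNA and 261 ± 4.78 FPKM with Luc esiRNA (SD, n = 2 each), a ratio of 0.907. The difference on the log2 scale, -0.14 with an SE of 0.037 and a 95% interval from -0.23 to -0.05, did not pass (limma adjusted p = 0.0987). The gene had 5384 to 8756 reads in a library, and the difference passed in limma-voom on reads (adjusted p = 0.0142) and after quantile normalization (-0.12, adjusted p = 0.0490).

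Ddit3 (ENSMUSG00000025408, chromosome 10, 127290774 to 127296288, plus strand) encodes Chop, a C/EBP-family factor made under persistent stress. It was at 5.78 and 5.32 FPKM with Tox4 esiRNA, against 6.37 and 6.79 FPKM with Luc esiRNA, on only 138, 110, 196 and 165 reads. The groups did not overlap, but the Poisson intervals did: they ran from 4.37 to 6.83 FPKM over the Tox4 libraries and from 5.51 to 7.91 FPKM over the Luc libraries. The log2 fold change of -0.21 (95% interval -0.39 to -0.03) did not pass (limma adjusted p = 0.166), nor in limma-voom (adjusted p = 0.235), and its SE of 0.072 is below the 0.10 that counting error alone gives on this scale. Ddit3 shares 68 exon bases with Mars and 13 with Gm4189 on the opposite strand, and 105 with another GENCODE entry of the same name on its own strand. Mars was at 103.4 and 106.3 FPKM with Tox4 esiRNA, against 117.5 and 116.8 FPKM with Luc esiRNA, far above Ddit3. The part of Mars reads in the Ddit3 values was not tested. Whether counting used strand is not given in the sources used here, so reads in the opposite-strand stretches cannot be told apart, and those in the same-strand stretch cannot be told apart by strand at all.

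Atf3 (ENSMUSG00000026628, chromosome 1, 191170296 to 191218039, minus strand), a stress-induced repressor and activator that Atf4 switches on, was at 7.12 and 7.73 FPKM with Tox4 esiRNA, against 11.0 and 9.27 FPKM with Luc esiRNA. Both Tox4 libraries were lower, and Luc replicate 1 was the highest of the 4. Its log2 fold change of -0.40 (SE 0.088, 95% interval -0.61 to -0.18) was next to that of Trib3 in size but did not pass (limma adjusted p = 0.0661), on 177 to 373 reads in a library. It passed in limma-voom (-0.45, adjusted p = 0.00587) and among genes averaging 5 FPKM or more (adjusted p = 0.0263). Atf5 (ENSMUSG00000038539, chromosome 7, 44812256 to 44816658, minus strand), a relative of Atf4 under similar translational control, was the member with a positive difference: it was at 27.1 and 28.8 FPKM with Tox4 esiRNA, against 25.3 and 25.9 FPKM with Luc esiRNA. Its exons share 82 bases with Il4i1 and 82 with Nup62 on the opposite strand. The groups did not overlap, and the log2 fold change of 0.12 (95% interval 0.01 to 0.23) did not pass (limma adjusted p = 0.206, limma-voom adjusted p = 0.214). Its SE of 0.046 is below the 0.055 that counting error alone gives on this scale.

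The C/EBP genes of the group gave values that overlapped between the groups. Cebpb (ENSMUSG00000056501, chromosome 2, 167688915 to 167690418, plus strand), which encodes an activator of stress and inflammatory genes, was at 12.8 and 11.9 FPKM with Tox4 esiRNA, against 14.02 and 12.4 FPKM with Luc esiRNA (log2 fold change -0.09, 95% interval -0.26 to 0.09, limma adjusted p = 0.543). Of its exon bases, 312 are shared with Tmem189 on the opposite strand. Cebpg (ENSMUSG00000056216, chromosome 7, 35046422 to 35056573, minus strand), the C/EBP partner of Atf4 in dimers, was at 10.7 and 10.5 FPKM with Tox4 esiRNA, against 11.5 and 10.01 FPKM with Luc esiRNA (-0.02, 95% interval -0.19 to 0.16, adjusted p = 0.925). Its Tox4 values lay between its Luc values. Cebpg exons share 73 bases with Gm44836 on the same strand and 4 with Gm45095 on the opposite strand.

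**Figure D3:**
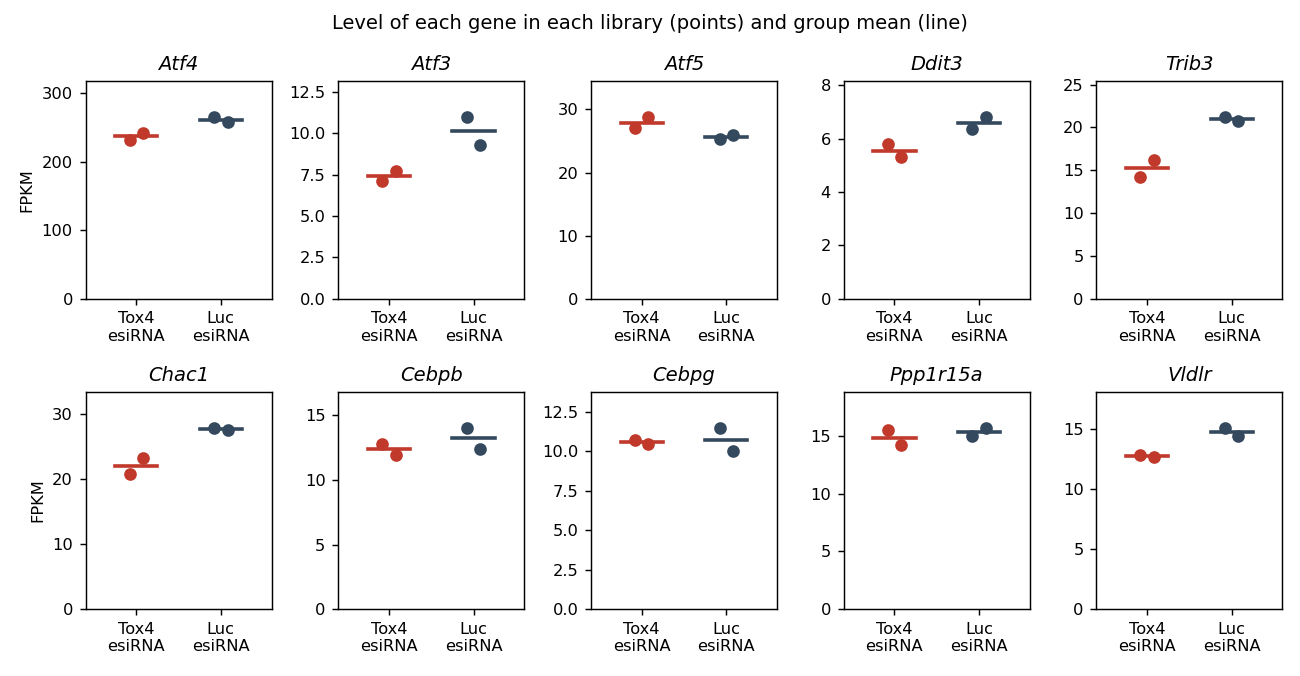
FPKM (y axis, from 0) of each of the 10 genes in the 2 Tox4 esiRNA libraries (red, left) and the 2 Luc esiRNA libraries (dark blue, right); points are libraries and lines group means. The red points lie wholly below the blue ones for Atf4, Atf3, Ddit3, Trib3, Chac1 and Vldlr, wholly above for Atf5, and overlap them for Cebpb, Cebpg and Ppp1r15a.

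The levels of the members, which FPKM scales per length, spanned a wide range in both groups. Atf4 stood far above the rest, higher than 98.7% of the genes of the table with Tox4 esiRNA and 98.9% with Luc esiRNA, and Ddit3 was the lowest, higher than 43.1% and 46.5%. By the mean of the 4 libraries the order was Atf4, Atf5, Chac1, Trib3, Ppp1r15a, Vldlr, Cebpb, Cebpg, Atf3 and Ddit3. In the Tox4 libraries neighbours overlapped in their values for Trib3 with Ppp1r15a and for Vldlr with Cebpb. In the Luc libraries Chac1 was above Atf5, Vldlr overlapped Ppp1r15a, and Atf3 overlapped Cebpg. Trib3 was above Ppp1r15a without overlap in the Luc libraries, and Atf5 above Chac1 without overlap in the Tox4 libraries. The members' summed level was 359 and 373 FPKM with Tox4 esiRNA, against 412 and 401 FPKM with Luc esiRNA, and most of it was Atf4. Without Atf4 the sum of the other 9 was 127 and 130 FPKM, against 147 and 143 FPKM.

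Set against Atf4 in the same library, a ratio in which library depth cancels, the members differed in direction. Trib3 was at 6.14% and 6.69% of the Atf4 level with Tox4 esiRNA, against 8.002% and 8.055% with Luc esiRNA. Chac1 was at 8.99% and 9.58%, against 10.5% and 10.7%, and Atf3 at 3.07% and 3.19%, against 4.14% and 3.59%. For these 3 genes and for Vldlr (5.558% and 5.253%, against 5.705% and 5.600%, a narrow gap) the Tox4 ratios were below the Luc ratios. For Atf5 they were above, with 11.7% and 11.9% with Tox4 esiRNA, against 9.55% and 10.03% with Luc esiRNA. The ratios of Ddit3, Cebpb, Cebpg and Ppp1r15a overlapped between the groups. With 2 libraries a group an exact permutation test of such a ratio cannot reach 0.05, so that these ratios are given without a test. The share of all genes that separate on this ratio was not counted, and the divisor, Atf4, was itself lower in both Tox4 libraries.

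**Figure D4:**
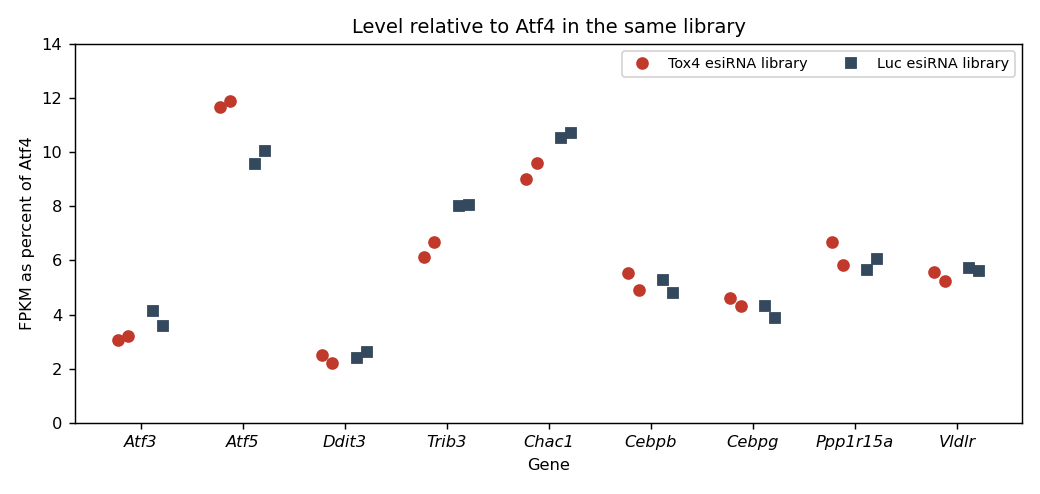
Level of 9 genes as a percent of the Atf4 FPKM of the same library (y axis, from 0), with Tox4 esiRNA libraries as red circles on the left and Luc esiRNA libraries as dark squares on the right of each gene. The red points are below the dark ones for Atf3, Trib3, Chac1 and Vldlr and above them for Atf5.

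Genes of amino acid supply and related targets of Atf4, a list of 23 that holds no member, held 8 calls. Of 22 tested, 7 fell, 1 rose and 14 did not pass (limma adjusted p over all genes). Over all genes tested 2.62% were lower and 1.89% higher. The median log2 fold change of the list was -0.15, beside -0.0034 for all genes. Cth, whose enzyme makes cysteine from cystathionine, was at 15.8 and 15.3 FPKM with Tox4 esiRNA, against 25.2 and 25.4 FPKM with Luc esiRNA. Its SE of 0.043 is below the 0.061 that counting error alone gives on this scale. The log2 fold change was -0.67 (limma adjusted p = 0.00263). This fall was larger than that of any member, and it held with each library left out in turn (adjusted p up to 0.0328). Others that fell were Stc2 (-0.31), Ddit4, an inhibitor of mTORC1 (-0.30), and Asns, the asparagine synthetase gene (-0.29). Psph (-0.25) and Psat1 (-0.24) of serine synthesis fell too, as did Slc7a3, a cationic amino acid transporter gene (-0.18). For Psph the SE of 0.039 is below the 0.043 that counting error alone gives on this scale. Sesn2, which encodes a leucine sensor upstream of mTORC1, rose (0.30, SE 0.034, limma adjusted p = 0.0139). It was at 54.1 and 53.8 FPKM with Tox4 esiRNA, against 43.4 and 43.9 FPKM with Luc esiRNA. Slc7a11, the cystine transporter gene, had 3 and 4 reads with Tox4 esiRNA, against 8 and 4 reads with Luc esiRNA, and was below the filter. Of the 8 calls of the list, 1 (Cth) was left without Luc replicate 1 and 1 (Cth) without Luc replicate 2. The core letters of the C/EBP-ATF response element were in a promoter window of 5 of the 19 list genes matched, Asns, Nupr1, Pycr1, Slc1a4 and Slc7a11, of which only Asns was called.

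Other groups of the pathway held 0 or 1 call each at the adjusted threshold, which 4.51% of all genes tested passed in limma. Of 20 cytosolic aminoacyl-tRNA synthetase genes, several of them Atf4 targets, Nars fell (152 ± 1.19 FPKM with Tox4 esiRNA and 174 ± 3.88 FPKM with Luc esiRNA, SD, n = 2 each, log2 fold change -0.19, limma adjusted p = 0.0381) and 19 did not pass. The median of the 20 was -0.08, and 17 were negative, as were 6346 of the 12403 genes tested. At an unadjusted p under 0.05 in limma 9 synthetase genes were lower and 0 higher, a p at which all genes were not counted. In limma-voom 7 were called in either direction, against 5.84% lower and 6.30% higher among all genes. Of 17 genes of eIF2 kinases, phosphatase and exchange factor, Impact, which encodes an inhibitor of the kinase Gcn2, fell (24.8 and 22.9 FPKM with Tox4 esiRNA, against 29.4 and 29.9 FPKM with Luc esiRNA, -0.30, adjusted p = 0.0338) and 16 did not pass, with a median of 0.03. The kinase genes Eif2ak1 (0.13), Eif2ak2 (-0.10), Eif2ak3 (0.04) and Eif2ak4 (0.02) did not pass, nor did Ppp1r15b (0.04), the constitutive counterpart of Ppp1r15a. The calls of Nars and Impact were both lost without either Luc library (adjusted p up to 0.228 and 0.177) and without Tox4 replicate 2 (0.0770 and 0.0543), and that of Nars also without Tox4 replicate 1 (0.0717).

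Genes of the Atf6 and Ire1 arms of the unfolded protein response, which act beside the eIF2 kinase arm, held no call. Among all genes tested 4.51% were called in either direction in limma. None of 22 passed in limma or in limma-voom, and their median was -0.01. At an unadjusted p under 0.05 in limma, 1 was lower (Hsp90b1) and 1 higher (Sdf2l1). Hsp90b1, a chaperone gene with the highest mean level of the list over the 4 libraries, was at 274 and 274 FPKM with Tox4 esiRNA, against 296 and 285 FPKM with Luc esiRNA (log2 fold change -0.09, limma adjusted p = 0.230). Hspa5, the main chaperone of the endoplasmic reticulum, was at 201 and 203 FPKM with Tox4 esiRNA, against 208 and 200 FPKM with Luc esiRNA (log2 fold change -0.01, 95% interval -0.10 to 0.07, limma adjusted p = 0.879). Xbp1, the effector of Ire1, was at 63.9 and 67.3 FPKM, against 68.2 and 65.8 FPKM (-0.03, 95% interval -0.13 to 0.07, adjusted p = 0.724).

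**Figure D5:**
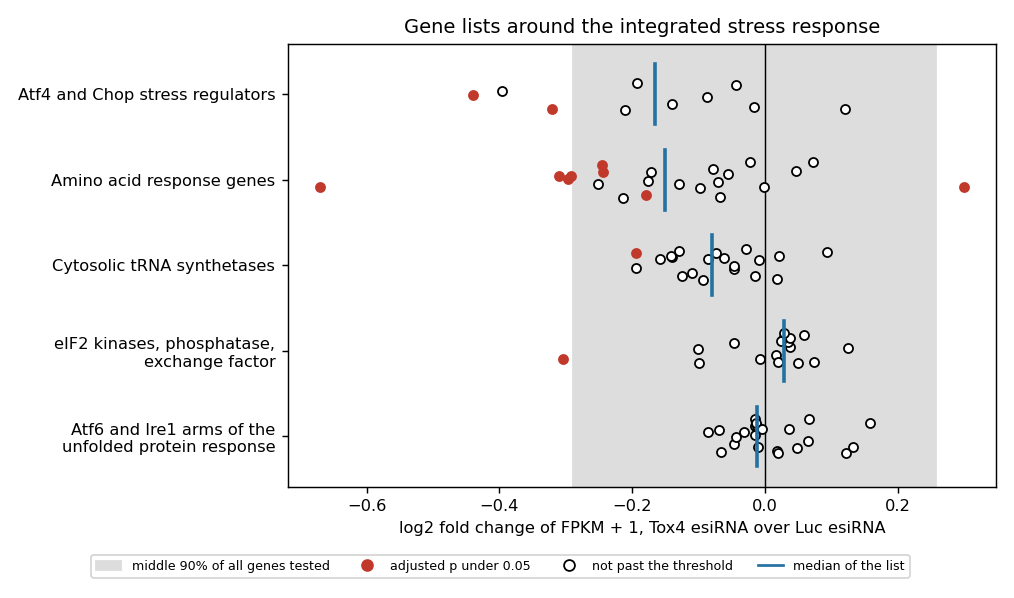
Log2 fold change of FPKM + 1 (Tox4 esiRNA over Luc esiRNA, x axis) of each tested gene in 5 lists (rows, scattered vertically for legibility); filled red points passed the adjusted threshold, blue lines are list medians and the grey band holds the middle 90% of all genes tested. The medians are -0.17 for the 10 stress regulators, -0.15 for amino acid response genes, -0.08 for tRNA synthetase genes, 0.03 for the eIF2 list and -0.01 for the Atf6 and Ire1 arms.

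Relatives of the members by family held 2 calls, where 4.51% of all genes tested were called in either direction. Of 16 tested identifiers of C/EBP, ATF, CREB, tribbles and Chac relatives, 1 fell and 15 did not pass, with a median of -0.08. The 1 was an identifier listed as Atf7 (ENSMUSG00000071584, log2 fold change -0.93, limma adjusted p = 0.0420), on 18, 15, 62 and 32 reads. Its SE of 0.17 is below the 0.24 that counting error alone gives on this scale, and its call was lost without Luc replicate 1 or either Tox4 library. The symbol stands for 2 identifiers in the table. The other (ENSMUSG00000052414, 83 to 127 reads) overlapped between the groups (-0.07, limma adjusted p = 0.688). Trib2, a relative of Trib3, was at 8.04 and 8.12 FPKM with Tox4 esiRNA, against 6.50 and 6.70 FPKM with Luc esiRNA (0.26, adjusted p = 0.0686), while Trib1 was at -0.09 and Chac2 at -0.37 on 17 to 37 reads. Of 8 lipoprotein receptor relatives of Vldlr, Lrp2, the megalin gene, fell (3.25 and 2.92 FPKM with Tox4 esiRNA, against 4.88 and 5.39 FPKM with Luc esiRNA, -0.59, adjusted p = 0.0270), and Lrp8 (-0.07) did not pass. The call of Lrp2 was lost without Luc replicate 1 (adjusted p = 0.111) and without Luc replicate 2 (0.166).

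The genes outside the members whose pattern over the 4 libraries was nearest to that of Trib3 were Mt1, Cldn3 and Sncb. Likeness was the root mean square difference of log2(FPKM + 1) deviations from a gene's own mean, among 8618 genes averaging 5 FPKM or more, and it was 0.02 for Mt1 and Cldn3 and 0.03 for Sncb. Mt1, a metallothionein gene, was at 78.5 and 89.5 FPKM with Tox4 esiRNA, against 112 and 110 FPKM with Luc esiRNA. The nearest to Atf4 were Icosl, Dtd2 and Ly6e, at 0.0018 to 0.0048, with log2 fold changes from -0.15 to -0.14. With 4 libraries many genes have near patterns, and the names are a description.

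The 10 members also differed in the leader that precedes the coding sequence, the stretch in which upstream start codons set the translational control of this pathway. In the principal GENCODE transcript 7 of 10 members had at least 1 upstream ATG, against 47.9% of 11458 tested genes with an annotated start, and the median leader was 268 bases, against 158 bases. Cebpg had 4, Atf4 and Ppp1r15a 3 each, Atf5 and Ddit3 2 each, Atf3 and Vldlr 1 each, and Trib3, Chac1 and Cebpb had none. In Atf4 and Atf5 an upstream frame ran past the start of the coding sequence, a feature of 15.7% of the tested genes.

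Tox4 itself was at 8.65 and 8.89 FPKM in the Tox4 libraries, against 16.7 and 17.5 FPKM in the Luc libraries (log2 fold change -0.89, SE 0.052, limma adjusted p = 0.00228). Its exons share 933 bases with Mettl3 and 195 with Rab2b on the opposite strand, so part of its value may be reads of those genes. The reads recovered for a library numbered 12778046 to 19008811. Mitochondrial genes took 1.05% of reads in each Tox4 library, against 0.840% and 0.864% in the Luc libraries. All 10 epiblast markers, Pou5f1, Sox2 and Nanog among them, were present, with sums of 1823 and 1863 FPKM in the Tox4 libraries, against 1935 and 1911 FPKM in the Luc libraries; Sox2 was higher and Tdgf1 lower. Of 8 fibroblast markers 4 averaged 1 FPKM or more, and the sums over the 7 in the table were 19.1 and 20.0 FPKM with Tox4 esiRNA, against 20.8 and 21.0 FPKM with Luc esiRNA. Of 12 markers of differentiated lineages 8 were in the table and 5 averaged 1 FPKM or more; no marker in the table was at 0 in all libraries. The sums over those 8 were 47.4 and 52.1 FPKM with Tox4 esiRNA, against 55.0 and 56.0 FPKM with Luc esiRNA, with Sox1 higher (1.12) and T (-1.06) and Krt8 (-0.30) lower. The part of the mitochondrial share and of these markers in the differences of the members was not tested. In bulk RNA, fewer cells that express a gene and less of its RNA per cell cannot be told apart.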

How the data were processed

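The series measured polyadenylated RNA of mouse epiblast stem cells in 2 Tox4 esiRNA and 2 Luc esiRNA libraries, grouped by their titles. The authors deposited FPKM values (fragments per kilobase of gene, scaled to library depth) of 15429 genes, in 1 series table and in 1 file per library with identical values. Named in the submitters' processing notes are CASAVA 1.8, STAR 2.3.0e and GRCm38.p1; how reads were assigned to genes, and whether strand counted, is not given in the sources used here.

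The 12403 genes averaging 1 FPKM or more across libraries were tested on log2(FPKM + 1) with limma 3.58.1 in R 4.3.3, with an intensity trend (2 residual and 4.01 prior degrees of freedom), no covariate, two-sided, with Benjamini-Hochberg adjustment over all genes tested and a threshold of 0.05. Fold changes on this scale understate changes of low genes. Tested on simulated data with known changes, the fit recovered most of the larger changes, but the share of false calls was usually above the nominal threshold, so calls near it are less firm than their adjusted p. Each gene's FPKM values stood in whole-number ratios once scaled by library depth (100% of genes, relative tolerance 2e-13), which gave the reads; a common factor was chosen for 4.51% of genes, no member among them. The reads served in limma-voom, a log-scale alternative, with trimmed-mean scaling factors computed from their published formula. Alternatives were other pseudocounts, filters, scalings and variance models, the replicate number as a block, and leaving out each library.

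Positions, exons and leaders came from GENCODE M21 (GRCm38), which held 98.7% of the identifiers, and promoter windows from RefSeq (GRCm38.p6). The named genes were the 10 members, Tox4, up to 6 list genes past the threshold by size (the highest gene where none passed), counterparts of the members set by name and the 3 genes nearest in pattern to Trib3 and to Atf4; Slc7a3, Sdf2l1 and genes named for a promoter match or an exon overlap were added after their values were seen, and 1 gene the rule covers is not reported here. The members and lists were chosen with earlier results of these data known, and no list was tested as a set.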

Additional observations from a re-analysis of the deposited data

How the results depend on the processing

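Of the members' log2 fold changes under the 13 alternatives, 115 kept their direction and their side of the threshold, 5 passed newly, 8 no longer passed and 2 changed sign. The sign changes were those of Cebpg without Luc replicate 1 (0.0723, against -0.1066 without Luc replicate 2) and Ppp1r15a without Tox4 replicate 2 (0.0176, against -0.1060 without Tox4 replicate 1), neither of which passed in any alternative. Trib3 passed in 10 and Chac1 in 8 of the 13. Besides the left-out libraries, Trib3 no longer passed without the intensity trend (adjusted p = 0.0797), and Chac1 without it (0.105) and with no filter on low values (0.0646). The members lower numbered 1 with no filter, 0 without the trend, 3 among genes averaging 5 FPKM or more, 3 after quantile normalization and 5 in limma-voom. Over all genes, 146 were higher and 202 lower with no filter, 33 and 45 without the trend, 365 and 476 among genes averaging 5 FPKM or more, and 781 and 724 in limma-voom. Calls among the amino acid genes numbered 1 without the trend, 11 among genes averaging 5 FPKM or more and 12 in limma-voom. Those among tRNA synthetase genes numbered 0 with no filter, 0 without the trend, 4 among genes averaging 5 FPKM or more, 2 after quantile normalization and 7 in limma-voom. Those among the eIF2 genes were 0 with no filter and 0 without the trend. Those among the family relatives were 0 with no filter, 0 without the trend, 0 after quantile normalization and 3 in limma-voom, and among the lipoprotein receptor genes 0 among genes averaging 5 FPKM or more, 0 without the trend and 2 in limma-voom. The causes were not tested. With 1 library left out at a time, the genes higher ranged from 28 to 161, the genes lower from 38 to 323, the members lower from 0 to 2, the amino acid calls from 1 to 9, and the calls of the tRNA synthetase, eIF2, family and lipoprotein receptor lists from 0 to 1 each; a group left with 1 library was assumed to vary like the other.

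The deviations of libraries with the same replicate number correlated at -0.0363 over 12403 genes. This does not show whether such libraries shared a culture or batch, which is not labelled. With the replicate block 222 genes were higher and 334 lower, 2 members were lower, 7 amino acid genes were called, and no tRNA synthetase gene was (0 calls). Depth limited Ddit3 and Atf3 most, with 110 to 373 reads a library.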
